A study of Homo sapiens with 4 samples.

Results

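FOXC1 binding was examined across the matrix metalloproteinase (MMP) genes of the 11q22 cluster in the human bladder cancer line J82. The members were 9 genes, MMP1, MMP3, MMP7, MMP8, MMP10, MMP12, MMP13, MMP20 and MMP27, of 20163 protein-coding genes in the annotation used. Each member was taken with its gene body and 20 kb to either side, and a FOXC1 peak was assigned to it when the summit of the peak lay in this window. The rule for the members used their names and position.

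The data came from chromatin immunoprecipitation with sequencing (ChIP-seq) of J82 cells grown in DMEM with serum. All 4 libraries were single-end with reads of 75 bp. In the FOXC1 ChIP group, 2 biological replicates were made with the antibody D8A6, and in the input group, 2 libraries were made without antibody. One condition of one cell line was profiled, so that no comparison between conditions was possible, and expression of the MMP genes was not analysed here. The deposited peak list of each ChIP replicate held its own peaks, called against input, and no test between groups was possible with 1 list per replicate. The lists had 22405 peaks in replicate 1 and 41789 in replicate 2 on chromosomes 1 to 22, X and Y, from an estimated 43200000 and 41500000 ChIP reads. In each list, fold enrichment is the ChIP pileup at the summit divided by the local background, each with 1 added. A shared region is a place where peaks of both replicates overlapped by at least 1 bp, and there were 13238 of them.

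MMPs are zinc-dependent endopeptidases that are made as inactive proenzymes and cleave components of the extracellular matrix. The cluster holds collagenases (MMP1, MMP8 and MMP13), which cut fibrillar collagen, and stromelysins (MMP3 and MMP10), which have a broad range of matrix substrates. It also holds the matrilysin MMP7, the macrophage metalloelastase MMP12, the enamel protease MMP20 and the less studied MMP27. FOXC1 is a forkhead transcription factor, and forkhead proteins recognise a short AT-rich sequence through a conserved winged helix domain. AP-1, the dimer of FOS and JUN proteins, is a well-known regulator of several MMP promoters, and its recognition sequence was therefore counted beside that of the forkhead family.

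All 9 members lay on the minus strand of chromosome 11 within 435 kb (hg19, the same assembly as GRCh37). In order of position they were MMP7 (chr11:102391239-102401481), MMP20 (chr11:102447563-102496063), MMP27 (chr11:102562218-102576500), MMP8 (chr11:102582527-102597781), MMP10 (chr11:102641233-102651359), MMP1 (chr11:102660132-102668891), MMP3 (chr11:102706532-102714340), MMP12 (chr11:102733467-102745712) and MMP13 (chr11:102813724-102826461). Some neighbouring windows overlapped, and the 9 windows together covered 412 kb, with 63.7 kb between them.

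FOXC1 peaks were found at 6 of the 9 members, namely MMP20, MMP10, MMP1, MMP3, MMP12 and MMP13. MMP7, MMP8 and MMP27 had no peak of either replicate in their windows. Replicate 1 had 5 peaks in the windows and replicate 2 had 10. All 5 replicate 1 peaks were overlapped by a replicate 2 peak and formed 5 shared regions, and the other 5 peaks of replicate 2 had no partner. Over the whole series, 59.6% of replicate 1 peaks and 31.7% of replicate 2 peaks were overlapped by a peak of the other list. The shared regions of the cluster lay 2 in introns of MMP20, 1 upstream of MMP10, 1 upstream of MMP3 and 1 in an intron of MMP13.

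The DNA under the 5 shared summits is given first, because it carries the recognition sequences described further on. Each line holds 101 bases of the plus strand of GRCh37, 50 to either side of the summit, which was set midway between the summits of the replicates. Capitals mark a forkhead heptamer (GTAAACA or GTAAATA or ATAAACA or ATAAATA) or the AP-1 heptamer (TGACTCA), on either strand, and no marked heptamers overlap.
MMP20 intron 6, chr11:102470806-102470906: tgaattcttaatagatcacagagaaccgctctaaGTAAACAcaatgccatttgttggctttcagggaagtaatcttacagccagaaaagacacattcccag
MMP20 intron 1, chr11:102491973-102492073: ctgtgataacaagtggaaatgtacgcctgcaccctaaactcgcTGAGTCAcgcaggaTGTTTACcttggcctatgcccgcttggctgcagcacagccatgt
MMP10 upstream, chr11:102651709-102651809: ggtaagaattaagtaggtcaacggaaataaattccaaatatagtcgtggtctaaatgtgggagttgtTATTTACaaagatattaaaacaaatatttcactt
MMP3 upstream, chr11:102717059-102717159: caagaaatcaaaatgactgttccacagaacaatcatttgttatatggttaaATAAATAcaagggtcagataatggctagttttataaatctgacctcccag
MMP13 intron 5, chr11:102821568-102821668: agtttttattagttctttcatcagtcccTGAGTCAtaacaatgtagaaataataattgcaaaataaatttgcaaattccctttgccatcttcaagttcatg

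**Figure D1:**
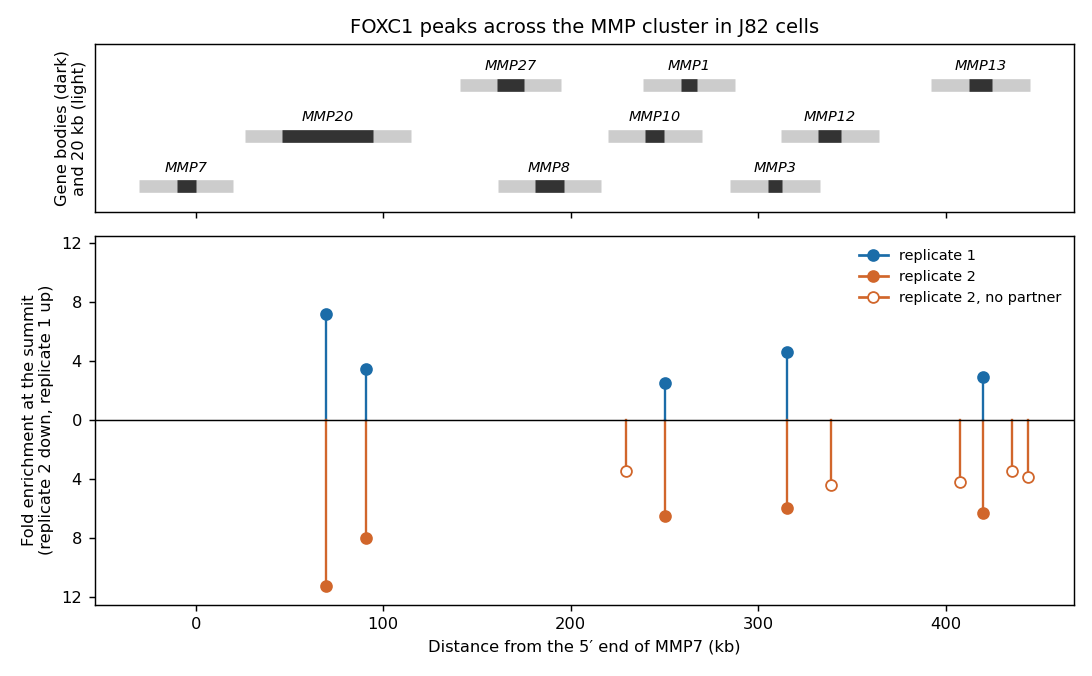
FOXC1 peaks across the cluster. The upper panel shows gene bodies (dark) with 20 kb to either side (light), and the lower panel shows the fold enrichment at each summit, replicate 1 upwards and replicate 2 downwards, against distance from the 5′ end of MMP7 in kb. Filled points are peaks of shared regions and open points are the 5 replicate 2 peaks without a partner. The windows of MMP7, MMP27 and MMP8 hold no summit.

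How often a gene has a peak at this distance was then counted over all protein-coding genes as the background. A replicate 1 summit was found in the window of 6 of 9 members and of 47.0% of all genes. A replicate 2 summit was found at 6 of 9 members and at 66.2% of all genes. For shared regions, the counts were 6 of 9 members and 33.0% of all genes. Of the 8938 genes whose windows were between the shortest and the longest window of the members (47.8 to 88.5 kb), 25.8% had a shared region. The 6 members are not independent, because the region upstream of MMP10 also lies in the window of MMP1 and the region upstream of MMP3 also lies in that of MMP12. The windows held 12.1 shared regions per Mb, and the whole series held 4.28 per Mb. Peaks per Mb were 12.1 in the windows and 7.24 in the whole series for replicate 1, and 24.3 and 13.5 for replicate 2. The whole series was counted over the full length of the chromosomes, including stretches without genes, whereas the windows are centred on genes.

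The count of members depended on how the peaks were chosen. A shared summit lay inside the gene body of 2 of 9 members, MMP20 and MMP13, compared with 4032, or 20%, of all genes. For start sites, 1 of 9 members, MMP10, had a shared summit no farther than 2 kb, compared with 8.64% of all genes. When both lists were limited to a −log10 q of 5 or more, a shared region was left in the windows of 3 of 9 members (MMP20, MMP3 and MMP12), compared with 20.2% of all genes. These 3 members rested on 2 regions, because MMP3 and MMP12 share theirs.

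MMP20, the protease of developing tooth enamel, held the strongest FOXC1 peak of the cluster. The shared region at chr11:102470466-102471128 lay in intron 6 of the transcript with 10 exons. It was 7725 bp downstream of the nearest MMP20 start site, which lies inside the gene body and belongs to another transcript. Its fold enrichment was 7.16 in replicate 1 and 11.2 in replicate 2 (mean 9.20 ± 2.87, SD, n = 2). The summit was covered by 36 reads (95% exact Poisson interval 25.2 to 49.8) in replicate 1 and 61 reads (46.7 to 78.4) in replicate 2, and these intervals cover counting error only. The −log10 q was 18.3 and 39.3. The peak ranked 2571 of the replicate 1 list and 3604 of the replicate 2 list by −log10 p. It was the strongest of the cluster in both lists, and its mean fold enrichment was at the 80.1 percentile of all shared regions.

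The other MMP20 region, chr11:102491767-102492240, lay in intron 1, 4040 bp downstream of the nearest start site and also in an intron of the antisense lncRNA gene MMP20-AS1. Its fold enrichment was 3.49 in replicate 1 and 8.01 in replicate 2 (mean 5.75 ± 3.20, SD, n = 2), with 17 reads (9.90 to 27.2) and 41 reads (29.4 to 55.6) over the summits. The −log10 q was 3.22 and 21.2. Although replicate 1 ranked this peak only 9002, replicate 2 placed it second in the cluster. The summits of the replicates lay 24 bp apart here and 8 bp apart in intron 6.

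Among the stromelysins, MMP10 was the only member of the cluster with a shared summit within 2 kb of its start. The region, chr11:102651353-102652016, had its summit 400 bp upstream of the MMP10 start site, within an intron of WTAPP1, a transcribed pseudogene on the opposite strand. Its fold enrichment was 2.52 in replicate 1 and 6.49 in replicate 2 (mean 4.50 ± 2.81, SD, n = 2), with 12 reads (6.20 to 21.0) and 33 reads (22.7 to 46.3). Replicate 1 was weak at this place. Its q-value was 0.224, above 0.05, and its rank was 19227. Of the 919 replicate 1 peaks within 500 ranks of it, 16.4% were overlapped by a replicate 2 peak. In replicate 2 the −log10 q was 13.7 and the rank was 9041.

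The replicate 2 peak at MMP10 covered the whole 250 bases before the start site, which hold the promoter, and the replicate 1 peak covered the outermost 30 of them. The sequence is shown because it is the only member promoter that a peak reached among those matched. It was taken from RefSeq (GRCh38.p14), reads towards the start site on the strand of the gene, and matches chr11:102651360-102651609 on GRCh37. Capitals mark a forkhead heptamer.
MMP10 promoter: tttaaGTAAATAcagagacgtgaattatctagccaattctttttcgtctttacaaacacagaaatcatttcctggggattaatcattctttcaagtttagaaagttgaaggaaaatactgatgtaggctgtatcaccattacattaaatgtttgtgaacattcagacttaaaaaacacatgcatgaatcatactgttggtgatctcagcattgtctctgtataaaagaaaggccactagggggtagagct

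RefSeq promoters were available and matched for 5 of the 9 members, MMP7, MMP8, MMP10, MMP20 and MMP27. Those of MMP1, MMP3, MMP12 and MMP13 were lacking and were not searched for either heptamer. The forkhead heptamers were found in the 250 bases before the start of MMP10, MMP20 and MMP27, and in 12.4% of all 35116 promoters in the table. The AP-1 heptamer was found before MMP7, 67 to 61 bases from the start, and in 4.20% of all promoters. No FOXC1 peak touched the promoter sequence of MMP7, MMP8, MMP20 or MMP27.

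MMP3, the other stromelysin, had a shared region between genes at chr11:102716864-102717351, with its summit 2769 bp upstream of the nearest MMP3 start site. The fold enrichment was 4.65 in replicate 1 and 5.92 in replicate 2 (mean 5.28 ± 0.90, SD, n = 2). The summit had 23 reads (14.6 to 34.5) and 30 reads (20.2 to 42.8), and the −log10 q was 7.29 and 11.9. Here the replicates were closest to each other, and their summits lay 10 bp apart. Replicate 1 placed it second in the cluster, while replicate 2 placed it last of the 5 shared regions.

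The collagenase genes differed in the peaks near them. MMP13 had a shared region at chr11:102821333-102821841 in intron 5, 4816 bp downstream of the nearest start site. Its fold enrichment was 2.90 in replicate 1 and 6.30 in replicate 2 (mean 4.60 ± 2.40, SD, n = 2), with 14 reads (7.65 to 23.5) and 32 reads (21.9 to 45.2). The −log10 q was 1.54 and 12.8, which for replicate 1 is a q-value of 0.0289. The summits of the replicates lay 134 bp apart, the widest gap of the 5 regions. MMP1 had no peak of its own in either list, and the only summit in its window was that of the MMP10 region. This summit lay beyond the 3′ end of MMP1, 11.8 kb from the nearest MMP1 start site, which is inside the gene body. MMP8 had no summit in its window, and its nearest shared summit lay 54.0 kb upstream of a start site.

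**Figure D2:**
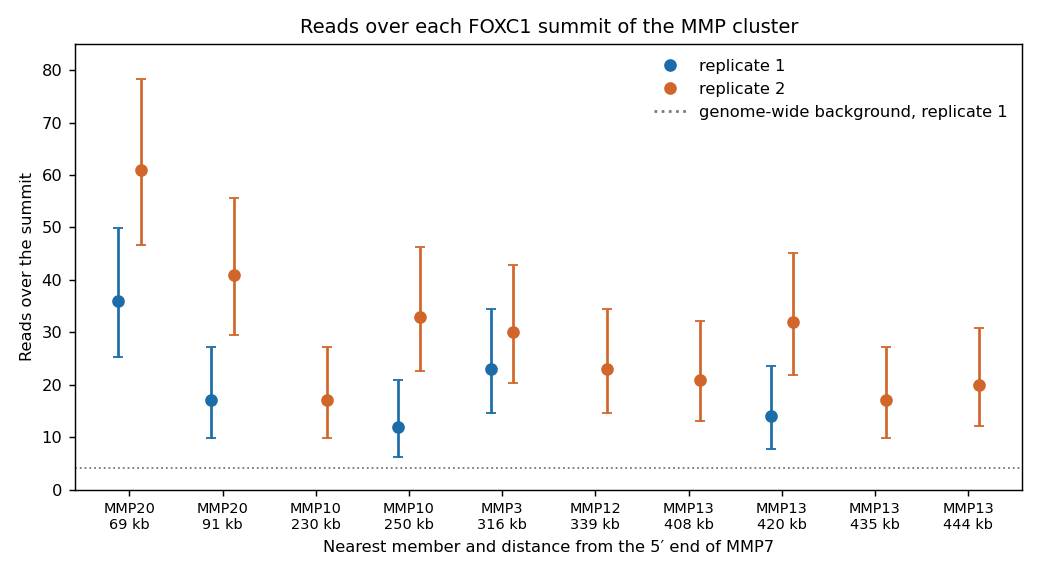
Reads over each summit of the cluster. Points are whole reads recovered from the peak values, bars are 95% exact Poisson intervals (counting error only), columns are the 10 places with a peak in order of position, and the dotted line is the genome-wide background of replicate 1, at 4.16 reads. Reads range from 12 to 36 in replicate 1 and from 17 to 61 in replicate 2.

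Replicate 2 alone listed 5 further peaks, of which 3 lay around MMP13. The strongest, chr11:102740155-102740602, lay in intron 4 of MMP12, the metalloelastase gene, 5355 bp downstream of the start site. It had a fold enrichment of 4.36 with 23 reads (14.6 to 34.5) and a −log10 q of 5.89. It was the only peak inside MMP12, since the replicate 1 peak in the MMP12 window was the one upstream of MMP3. The peak at chr11:102808821-102809184, between genes and 4.73 kb beyond the 3′ end of MMP13, had a fold enrichment of 4.2 with 21 reads (13.0 to 32.1). Upstream of MMP13, a peak 10.5 kb from the gene body lay in a pseudogene (chr11:102836708-102837177, fold enrichment 3.44, 17 reads). Another lay 18992 bp upstream, close to the edge of the window (chr11:102845389-102845676, fold enrichment 3.82, 20 reads). The last, chr11:102631028-102631297, lay in an intron of WTAPP1, 10.1 kb beyond the 3′ end of MMP10, with a fold enrichment of 3.44 and 17 reads.

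The peaks without a partner were weaker than the shared ones. In replicate 2, they had fold enrichments of 3.44 to 4.36, and the 5 shared peaks had 5.92 to 11.2, so that the ranges did not overlap. Over the whole series, replicate 2 peaks had a median fold enrichment of 3.18 without a partner and 6.70 with one. The separation did not hold there, since some shared regions had replicate 2 values below 3.18. At the genome-wide background, the replicate 1 list held no summit with fewer than 10 reads. How many replicate 1 reads lay at these 5 places is not known from a list of peaks.

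A forkhead heptamer lay no farther than 50 bp from the summit in 4 of the 5 shared regions (95% exact binomial interval 28.4 to 99.5%) and in none of their 5 control windows 500 bp downstream. In all 13238 shared regions it was found in 48.7%, and in 10.8% of the control windows. Both MMP20 regions held GTAAACA, with its nearest base 10 bases from the summit in intron 6 and 7 bases in intron 1. The MMP10 region held GTAAATA at 17 bases and the MMP3 region ATAAATA at 1 base from the summit. The MMP13 region held none of the 4 heptamers, whether the window was placed midway or on the summit of either replicate.

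The AP-1 heptamer was found in 2 of the 5 shared regions (interval 5.27 to 85.3%) and in none of their control windows, compared with 16.6% of all shared regions and 1.93% of their control windows. These were MMP20 intron 1, where it lay 1 base from the summit, and MMP13 intron 5, at 16 bases. In MMP20 intron 1, the forkhead and AP-1 heptamers were separated by 7 bases, and it was the only shared region of the cluster with both. On the summit of either replicate, the AP-1 heptamer was found in MMP20 intron 1 alone. The intervals for 5 regions held the share of the whole series for both sequences. These intervals treat the regions as independent draws, whereas the regions were fixed by position and 2 of them lie in MMP20. A difference from the whole series was not tested.

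Of the 5 peaks found in replicate 2 alone, 2 held a forkhead heptamer and 1 the AP-1 heptamer, compared with 33.3 and 9.18% of all such peaks. The MMP12 peak held both of these sequences, and it was the only source of the AP-1 count. Of 10 words of 20 bases taken from its window, 6 occurred once on chromosome 11 and the most frequent occurred 318 times, while no word from the other 9 places with a peak occurred more than 2 times. The window of the peak downstream of MMP13 is given in the same way, because its forkhead heptamer lay 2 bases from the summit.
MMP13 downstream, chr11:102808946-102809046: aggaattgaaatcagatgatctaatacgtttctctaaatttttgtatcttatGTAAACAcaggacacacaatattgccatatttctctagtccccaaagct

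In each of the 5 shared regions, replicate 2 had the higher fold enrichment. The ratio of replicate 2 to replicate 1 was 1.57 in MMP20 intron 6, 2.30 in MMP20 intron 1, 2.58 at MMP10, 1.27 at MMP3 and 2.17 at MMP13. The median of these was 2.17, compared with 1.68 over the whole series, where 5% of the regions lay below 0.918 and 5% above 3.01. Taken from the reads over the summit and scaled to the total reads of each library, the ratio was 1.76 in MMP20 intron 6 (95% exact binomial interval 1.15 to 2.74), 2.51 in MMP20 intron 1 (1.40 to 4.71), 2.86 at MMP10 (1.44 to 6.09), 1.36 at MMP3 (0.763 to 2.45) and 2.38 at MMP13 (1.23 to 4.83). The median of the whole series, 1.86, lay inside all 5 intervals. The local background at the 15 peaks of the cluster was 1 to 1.07 times the genome-wide background of its library.

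**Figure D3:**
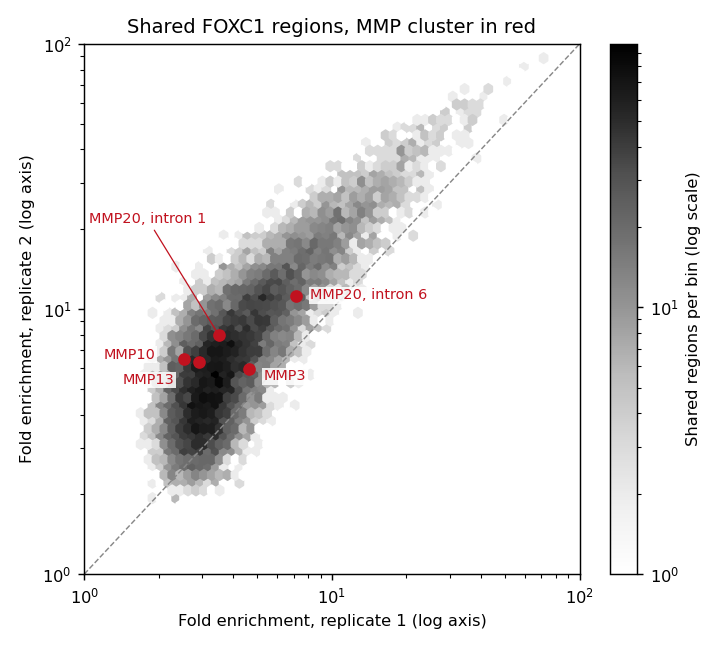
Fold enrichment in replicate 1 against replicate 2 on log axes. Grey bins hold all 13238 shared regions, red points are the 5 regions of the cluster, and the dashed line marks equal values. All 5 lie above the line, and their median mean fold enrichment (5.28) is close to that of all shared regions (5.23).

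By the median of their mean fold enrichments, the shared regions of the cluster lay near the middle of the list. This median was 5.28, compared with 5.23 over all shared regions. When shared regions were ordered by the worse of their ranks in the replicates, MMP20 intron 6 stood at place 2980, MMP20 intron 1 at 6957, MMP3 at 7649, MMP13 at 9435 and MMP10 at 11257 of 13238. In replicate 1 the order of fold enrichments was MMP20 intron 6, MMP3, MMP20 intron 1, MMP13 and MMP10, and in replicate 2 it was MMP20 intron 6, MMP20 intron 1, MMP10, MMP13 and MMP3. The first and the fourth place were the same in both. The read intervals of MMP20 intron 6 and of the region next to it in the order overlapped in each replicate, and so did those of all other neighbours in the order.

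The distance from a start site to the nearest FOXC1 summit separated the members further. MMP10 was closest, at 428 bp in replicate 1 and 373 bp in replicate 2, followed by MMP3 at 2764 and 2774 bp, MMP20 at 4028 and 4052 bp and MMP13 at 4749 and 4883 bp. For MMP12 the distances were 28.6 and 5.36 kb, because the peak in its intron 4 was listed in replicate 2 alone. MMP1 was at 11.8 kb in both. For the members without a peak, MMP7 was at 69.4 kb in both replicates, MMP8 at 54.0 and 33.3 kb and MMP27 at 75.3 and 54.6 kb. The farthest assigned summit lay 18992 bp from the gene body of MMP13, and the nearest summit beyond the windows lay 68.5 kb from that of MMP7.

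**Figure D4:**
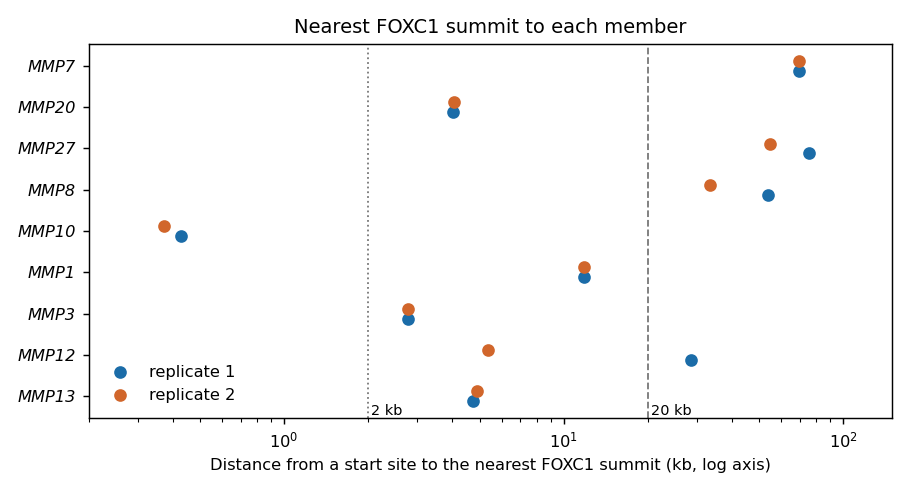
Distance from a start site of each member to the nearest FOXC1 summit, in kb on a log axis, with members in order of position and replicates in blue and orange. The dotted line marks 2 kb and the dashed line 20 kb. MMP10 alone lies inside 2 kb, and MMP7, MMP27 and MMP8 lie beyond 20 kb in both replicates, as does MMP12 in replicate 1 alone.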

How the data were processed

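FOXC1 ChIP-seq peaks of 2 replicates were analysed. The authors aligned the reads to hg19 with bwa and called peaks of each replicate over input with MACS2 2.2.7.1. They also ran IDR, whose output was not analysed here, and the filter behind the lists is not stated. The lists reach down to a −log10 p of 2.00 in replicate 1 and 2.02 in replicate 2. Replicate 1 was not limited to a q-value of 0.05, since its peak at MMP10 had 0.224. The fold enrichment (a ratio), the −log10 p and the −log10 q of each summit are the values the authors deposited, and the deposited score is the −log10 p multiplied by 10 and truncated. Files of the inputs were not analysed here. Peaks on chromosomes 1 to 22, X and Y were kept. Whole reads and the local background were solved from fold enrichment and −log10 p, which succeeded for 100% of replicate 1 and 99.8% of replicate 2 peaks (tested on simulated data). Read totals assume a genome size of 2.7 Gb and the smallest peak width as the fragment length. Genes and start sites of all transcripts came from GENCODE version 44 on GRCh37. Summits were assigned to the 9 members by window, and every assigned peak is named. Members and comparison lists were chosen with earlier results of these data known. No test between groups was made. Python 3.11.15, scipy 1.17.1 and pysam 0.24.0 were used. Sequences under 4 of the 10 places with a peak are not reported here.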

Additional observations from a re-analysis of the deposited data

How the results depend on the processing

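Of 61 recomputed values, 39 stayed within the limits set for them (1.5 times a count, a ratio or a distance, and 1 SD of a mean) and 22 moved. With gene bodies alone, 3 peaks of replicate 1, 4 of replicate 2 and 3 shared regions were assigned, at 2, 3 and 2 members. At a −log10 q of at least 5, 2 and 6 peaks and 2 shared regions were left, and 3 members kept a replicate 1 peak or a shared region. At a fold enrichment of at least 5, 1 and 5 peaks and 1 shared region were left, with 1 member for replicate 1 and for shared regions. A reciprocal overlap of 50% left 3 shared regions at 3 members. GTAAACA alone, and TAAACA alone, were each found in 2 shared regions. On the summit of either replicate, a choice made after seeing the data, the AP-1 heptamer was found in 1. Without replicate 1 or 2, the median fold enrichment of the shared regions was 6.49 or 3.49. No test between groups, paired or not, was possible with 1 condition and 1 peak list per replicate. The replicate 1 peaks at MMP10, MMP13 and MMP20 intron 1 rest on 12 to 17 reads, so that their fold enrichments are the least precise of the shared regions.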

Other observations

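Of 14 MMP genes outside the cluster, 5 had a replicate 1 peak, 7 a replicate 2 peak and 2 a shared region in the gene body or within 20 kb. Over all protein-coding genes these shares were 47.0, 66.2 and 33.0%, and windows differ in length between genes. MMP2, which encodes gelatinase A, had a shared region at a start site, enriched 2.47 and 5.92 times (mean 4.19 ± 2.44, SD, n = 2). MMP16, a membrane-type MMP, had 2 shared regions in a window of 336 kb, and the values of the stronger were 3.58 and 4.57 (mean 4.07 ± 0.70, SD, n = 2). MMP24 had 3 peaks of replicate 1 and 8 of replicate 2 and none of them overlapped. Over the whole series, 59.6% of replicate 1 peaks and 31.7% of replicate 2 peaks were overlapped.

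Among the inhibitors of MMPs (TIMP1 to TIMP4 and RECK), 3 of 5 had a replicate 1 peak, 3 a replicate 2 peak and 2 a shared region. Over all protein-coding genes these shares were 47.0, 66.2 and 33.0%. The median window was 101 kb for the inhibitors and 67.2 kb for all genes. TIMP2 had 3 shared regions, the strongest enriched 5.81 and 13.0 times (mean 9.38 ± 5.05, SD, n = 2), 8.19 kb upstream of a start site. RECK had 1, with 3.42 and 5.83 (mean 4.62 ± 1.70, SD, n = 2).

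Of 7 protein-coding genes that flank the cluster, 4 had a replicate 1 peak, 7 a replicate 2 peak and 3 a shared region, in windows with a median of 114 kb. Over all protein-coding genes these shares were 47.0, 66.2 and 33.0%, in windows with a median of 67.2 kb. PDGFD, which encodes a platelet-derived growth factor, had the strongest shared region of the 7, with 5.03 and 12.6 (mean 8.80 ± 5.33, SD, n = 2). BIRC3, an inhibitor of apoptosis, had 3.87 and 7.44 (mean 5.65 ± 2.52, SD, n = 2), and TMEM123 had 3.68 and 8.01 (mean 5.84 ± 3.06, SD, n = 2), 2.58 kb from a start site. None of the 7 had a shared summit within 2 kb of a start site.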
